A study of Mus musculus with 6 samples.

Results

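Mitochondrial ribosomal protein genes were examined in hearts of mice with and without forced expression of the miR302-367 microRNA cluster. Members were all genes whose symbol begins with Mrpl or Mrps followed by a digit, leaving out pseudogenes, as far as a probe named them alone. This gave 71 of the 22180 genes tested, 43 of the large subunit and 28 of the small subunit. A further 7 such genes had only probes shared with a neighbouring gene and were not analysed here, namely Mrpl30, Mrpl33, Mrpl41, Mrpl43, Mrpl44, Mrpl53 and Mrps6. The rule used symbols and no measured difference.

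The data were 6 Affymetrix arrays of heart RNA, 3 per group, on a mixed C57BL/6 x 129S6 background. Controls carried Nkx2.5-Cre, a recombinase expressed in cardiac progenitors, and the other hearts, called transgenic, carried Nkx2.5-Cre; R26R-miR302-367, an allele at Rosa26 that Cre switches on. All 6 samples therefore carried Cre, and heart cells outside the Nkx2.5 lineage need not express the allele. The labels give postnatal day 14 as the harvest time and E14 as the age, and do not say whether samples were separate animals, so p-values measure only the spread between these samples, and transgenic hearts 1 to 3 below are names of samples.

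Values are deposited log2 values, and a difference is the transgenic mean minus the control mean on that scale. Pairs of arrays correlated at 0.982 to 0.989 within a group and at 0.974 to 0.983 between groups. The 5 microRNA genes Mir302a to Mir302d and Mir367 had transgenic values above all control values, with differences of 2.99 (Mir302b) to 6.61 (Mir302c) on the log2 scale. All 8 cardiomyocyte markers examined lay at or above the 97.7 percentile of genes by mean value, and 0 of them passed the limma test (1 was higher and 0 lower at an unadjusted p of 0.05). The array names these genes by symbol, and single mature arms were not measured here. Mature sequences that RefSeq on GRCm38.p6 gives for 3 of these genes are shown to identify the cluster, with the seed, bases 2 to 8, in capitals. The pair from Mir302b and Mir302d shares its seed, and the product of Mir367 has another.
mmu-miR-302b-3p, chr3:127545275-127545297, plus strand: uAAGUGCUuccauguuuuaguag
mmu-miR-302d-3p, chr3:127545665-127545687, plus strand: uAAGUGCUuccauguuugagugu
mmu-miR-367-3p, chr3:127545779-127545800, plus strand: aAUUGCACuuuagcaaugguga

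The mitochondrial ribosome translates the few messenger RNAs of mitochondrial DNA, which encode core subunits of the respiratory chain and ATP synthase. Its ribosomal RNAs come from mitochondrial DNA, while its proteins are encoded in the nucleus, made in the cytosol and imported. The small subunit reads the messenger RNA and the large subunit joins the amino acids and sits at the inner membrane. Heart muscle, which depends on oxidative metabolism, makes large amounts of these products.

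Genes of the large subunit made up every call among the members. In transgenic hearts 9 of the 43 large subunit genes fell and 0 rose at an adjusted p under 0.05 (limma, Benjamini-Hochberg adjustment over the whole table). Of the 28 small subunit genes 0 rose and 0 fell in the same test, while at an unadjusted p under 0.05 they held 2 higher and 3 lower. Over all genes tested 5.76% were called lower and 5.35% called higher, against 20.9% and 0% of the large subunit genes. After renewed quantile normalization of the arrays 1789 of all genes were called lower and 1023 higher, in place of 1278 and 1187. That setting called 10 large and 2 small subunit genes lower. Whether the subunits differ in their share of calls was not tested.

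The 9 genes that fell were Mrpl38, Mrpl37, Mrpl4, Mrpl39, Mrpl45, Mrpl14, Mrpl35, Mrpl19 and Mrpl12. Their differences ran from -0.56 to -0.38, or 1.48-fold to 1.304-fold lower, with adjusted p-values of 0.003203 to 0.03974 (limma). For all 9 the highest transgenic value lay below the lowest control value, as it did for 16.7% of all genes tested. These genes were picked for a difference large against the spread, so this separation adds no separate support.

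**Figure D1:**
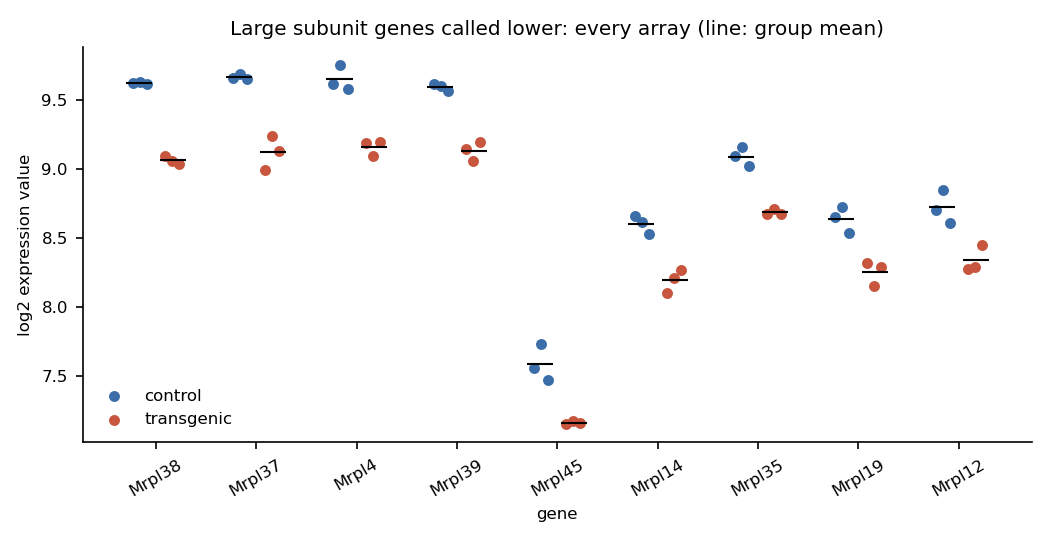
Log2 expression value (vertical axis) of the 9 large subunit genes called lower, for each of the 3 control (blue) and 3 transgenic (red) arrays, with a line at each group mean. The groups do not overlap for any of the 9 genes, and heights should be compared within a gene only.

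Of the genes that fell, 4 encode mitochondria-specific proteins of the large subunit, those without a bacterial counterpart. The genes tested in each class were not counted, so no contrast between the classes is drawn. Mrpl38, whose protein belongs to the central protuberance, had log2 values of 9.63, 9.62 and 9.62 in controls 1 to 3 and of 9.06, 9.10 and 9.03 in transgenic hearts 1 to 3. The spread was 0.0063 (SD, n = 3) among controls and 0.031 (SD, n = 3) among transgenic hearts, and the difference was -0.56 (SE 0.079, limma adjusted p = 0.003203). Mrpl37 had 9.69, 9.66 and 9.65 in controls and 9.24, 8.995 and 9.13 in transgenic hearts, a difference of -0.55 (SE 0.091, limma adjusted p = 0.006884). Its transgenic values spread more than its control values and stayed below all of them. Mrpl39 had 9.60, 9.61 and 9.57 in controls and 9.06, 9.14 and 9.19 in transgenic hearts, a difference of -0.46 (SE 0.083, limma adjusted p = 0.009088). Mrpl45, which lies at the tunnel exit and helps attach the ribosome to the inner membrane, had 7.74, 7.56 and 7.47 in controls and 7.17, 7.15 and 7.16 in transgenic hearts. Here the controls were the scattered group (SD 0.13, n = 3, against SD 0.010, n = 3), and the difference was -0.43 (SE 0.094, limma adjusted p = 0.02209).

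The other genes that fell, 5 in number, encode large subunit proteins with a bacterial counterpart. Mrpl4, which lines the exit tunnel, had 9.75, 9.62 and 9.58 in controls and 9.10, 9.19 and 9.19 in transgenic hearts, a difference of -0.49 (SE 0.088, limma adjusted p = 0.009535). Mrpl14, at the face between the subunits and the binding site of the assembly factor Malsu1, had 8.62, 8.66 and 8.53 in controls and 8.21, 8.10 and 8.27 in transgenic hearts, a difference of -0.41 (SE 0.089, limma adjusted p = 0.02058). Mrpl35 had 9.16, 9.09 and 9.02 in controls and 8.71, 8.68 and 8.67 in transgenic hearts, a difference of -0.40 (SE 0.083, limma adjusted p = 0.0168). Control 3 was the lowest control for all 9 genes that fell, as for 40 of the 43 large subunit genes and 39.2% of all genes tested. Mrpl19 had 8.73, 8.65 and 8.54 in controls and 8.15, 8.32 and 8.29 in transgenic hearts, a difference of -0.39 (SE 0.093, limma adjusted p = 0.03143). Mrpl12, of the stalk that receives translation factors, had 8.85, 8.71 and 8.61 in controls and 8.29, 8.28 and 8.45 in transgenic hearts, a difference of -0.38 (SE 0.098, limma adjusted p = 0.03974). A second, dimmer Mrpl12 probe had a difference of -0.14 (limma adjusted p = 0.4068 when each probe was tested on its own).

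Of the 9 calls, those of Mrpl38, Mrpl37, Mrpl4 and Mrpl39 were kept in all 14 other fits run for single genes. The number of genes called lower was 4 when control 1 was left out, 6 when control 2 and 10 when control 3 was. It was 4 when transgenic 1 or transgenic 2 was left out and 5 when transgenic 3 was. Calls lower over all genes tested numbered 1278 in the main fit and 719, 858 and 1279 without controls 1, 2 and 3 in turn. They numbered 642, 602 and 810 without transgenic hearts 1, 2 and 3 in turn. Mrpl35 and Mrpl45 lost their calls without control 1 or any 1 transgenic heart, and Mrpl14 lost its call without control 1, control 2, transgenic 1 or transgenic 2. Mrpl19 and Mrpl12 lost theirs without any 1 array other than control 3. Adjusted p-values of these 5 genes reached at most 0.175 (Mrpl12) in those fits.

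The promoters of the called genes were read for letters of factors known to act at nuclear genes for mitochondrial proteins. RefSeq windows on GRCm38.p6, 250 bases before to 50 after each annotated start, were found for 62 of the 71 members and 6 of the 9 called genes. The called genes Mrpl38, Mrpl4 and Mrpl19 had no window. Of the 6 with a window, only Mrpl37 and Mrpl39 kept their calls in all other fits. The patterns searched on both strands were GCGCANGCG for NRF1, CCGGAAG for ETS factors such as GABP, AAGATGGCG for YY1, CACGTG for the E-box and CCAAT for the CCAAT box, each allowed to overlap another. The NRF1 letters stood in 14 of 68 member windows (20.6%), against 6.25% of all 32851 windows. Of the 6 windows of called genes 4 held them, those of Mrpl12, Mrpl14, Mrpl39 and Mrpl45. The YY1 letters stood in 8 member windows (11.8%, against 1.40% of all windows), among them Mrpl35 and Mrpl37. The ETS letters stood in 23 member windows (33.8%, against 8.86% of all), 28.6% of the large and 42.3% of the small subunit windows, and in 0 of the 6 windows of called genes. The E-box stood in 10.3% of member windows and 7.15% of all, and the CCAAT box in 39.7% and 37.4%. The 68 member windows belong to 62 genes and the 32851 windows to 27025, so a promoter can count more than once. Several overlapping windows of Mrpl2 are among those with the E-box and the CCAAT box. A match describes letters only, and binding was not measured here.

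The windows of Mrpl39, Mrpl45 and Mrpl37 are shown because they hold the patterns found in the called genes, and that of Mrps21, the small subunit gene with the largest positive difference, for comparison. Capitals mark the NRF1, ETS and YY1 letters. In Mrpl39 the NRF1 pattern begins 125 bases before the start, where matches on both strands overlap, and in Mrpl45 it occurs 3 times, 120 and 38 bases before the start and once after it. The YY1 pattern of Mrpl37 lies after the start. Mrps21 holds the NRF1 letters 90 bases before the start and the ETS letters after it.
Mrpl39, chr16:84735195-84735494, minus strand: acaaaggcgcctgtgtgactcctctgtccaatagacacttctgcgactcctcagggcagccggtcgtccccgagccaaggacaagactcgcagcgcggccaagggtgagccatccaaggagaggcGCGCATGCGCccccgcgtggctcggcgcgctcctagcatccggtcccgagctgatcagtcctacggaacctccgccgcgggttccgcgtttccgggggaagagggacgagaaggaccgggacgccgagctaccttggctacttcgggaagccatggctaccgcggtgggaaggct
Mrpl45, chr11:97315466-97315765, plus strand: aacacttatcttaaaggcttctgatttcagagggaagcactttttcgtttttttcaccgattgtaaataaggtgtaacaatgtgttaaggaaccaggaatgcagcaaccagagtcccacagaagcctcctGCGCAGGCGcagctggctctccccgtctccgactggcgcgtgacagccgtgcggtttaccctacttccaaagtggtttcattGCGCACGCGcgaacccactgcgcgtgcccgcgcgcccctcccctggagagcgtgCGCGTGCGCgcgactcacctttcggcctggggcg
Mrpl37, chr4:107066817-107067116, minus strand: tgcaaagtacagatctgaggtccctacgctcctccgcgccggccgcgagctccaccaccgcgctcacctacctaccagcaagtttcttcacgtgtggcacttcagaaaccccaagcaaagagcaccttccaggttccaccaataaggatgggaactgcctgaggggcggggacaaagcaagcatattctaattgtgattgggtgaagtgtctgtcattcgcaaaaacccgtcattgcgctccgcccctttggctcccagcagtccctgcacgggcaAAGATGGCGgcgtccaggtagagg
Mrps21, chr3:95871465-95871764, minus strand: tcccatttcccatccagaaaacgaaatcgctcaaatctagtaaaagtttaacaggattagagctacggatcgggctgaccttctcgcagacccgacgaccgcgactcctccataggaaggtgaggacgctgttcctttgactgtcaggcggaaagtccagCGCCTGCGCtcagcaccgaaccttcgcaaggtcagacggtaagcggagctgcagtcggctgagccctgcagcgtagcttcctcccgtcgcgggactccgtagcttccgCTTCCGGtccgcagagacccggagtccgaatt

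The other 34 large subunit genes did not pass the test, with differences from -0.29 to 0.25. Mrpl2, a core protein beside the peptidyl transferase centre, was nearest to the threshold with 8.38, 8.25 and 8.09 in controls and 7.96, 7.93 and 7.97 in transgenic hearts (difference -0.29, limma adjusted p = 0.09876). It was called lower in 3 of the 14 other fits. Mrpl10, which holds the Mrpl12 stalk, had 9.83, 9.81 and 9.76 in controls and 9.38, 9.66 and 9.61 in transgenic hearts (difference -0.25, limma adjusted p = 0.1422). Its groups did not overlap, as for 16.7% of all genes tested in this direction. The largest positive value of the subunit was that of Mrpl52, at 0.25 (limma adjusted p = 0.1886), with values of 9.62, 9.45 and 9.39 in controls and 9.90, 9.65 and 9.65 in transgenic hearts. Mrpl32, which the m-AAA protease must cut before it enters the ribosome, had the widest interval, from -0.58 to 0.55. Its values were 8.02, 8.23 and 7.10 in controls against 7.88, 7.70 and 7.73 in transgenic hearts, so that control 3 alone stood apart.

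Small subunit genes lay on both sides of 0, from -0.34 for Mrps26 to 0.34 for Mrps21. Mrps21, the counterpart of bacterial S21, had 7.40, 7.53 and 7.18 in controls and 7.67, 7.75 and 7.72 in transgenic hearts, a difference of 0.34 with a 95% interval of 0.10 to 0.58 (limma adjusted p = 0.07222). All transgenic values lay above all controls, as for 14.2% of all genes tested. Mrps21 was called higher when control 2 was left out, when dim genes were removed, and when the variance was allowed to follow intensity. Mrps14 had 5.004, 5.74 and 5.16 in controls and 5.63, 5.68 and 5.501 in transgenic hearts, a difference of 0.30 (limma adjusted p = 0.3235). Control 2 was the highest of the 6 arrays for this gene, and without it Mrps14 was called higher (adjusted p = 0.02547). Mrps17 had 7.79, 7.73 and 7.51 in controls and 7.93, 8.14 and 7.80 in transgenic hearts, a difference of 0.29 (limma adjusted p = 0.1651). Its second probe, with a mean value of only 4.56, gave 0.25 and was not called.

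On the negative side Mrps26, a mitochondria-specific protein, had 7.84, 8.04 and 7.77 in controls and 7.47, 7.44 and 7.72 in transgenic hearts (difference -0.34, 95% interval -0.60 to -0.09, limma adjusted p = 0.08905). Mrps22, another such protein, had 7.90, 7.84 and 7.66 in controls and 7.66, 7.30 and 7.48 in transgenic hearts (difference -0.32, limma adjusted p = 0.1214), with control 3 and transgenic 1 close together. After renewed quantile normalization both were called lower. Mrps25 had a difference of -0.32 with an interval of -0.67 to 0.03 (limma adjusted p = 0.2459). The small subunit genes had a median standard deviation of 0.15 in controls and 0.13 in transgenic hearts, and the large subunit genes 0.12 and 0.086.

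The Mrps18 paralogs descend from 1 bacterial protein. Mrps18a had a difference of 0.00089 (95% interval -0.26 to 0.26), Mrps18b of -0.20 (-0.43 to 0.03) and Mrps18c of 0.02 (-0.21 to 0.25), and 0 of them passed the limma test or an unadjusted p of 0.05. In the solved mammalian ribosome Mrps18a and Mrps30 lie in the large subunit, and Mrps36 is known as part of the 2-oxoglutarate dehydrogenase complex. Placing them so left 9 of 45 large and 0 of 25 small subunit genes called lower.

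**Figure D2:**
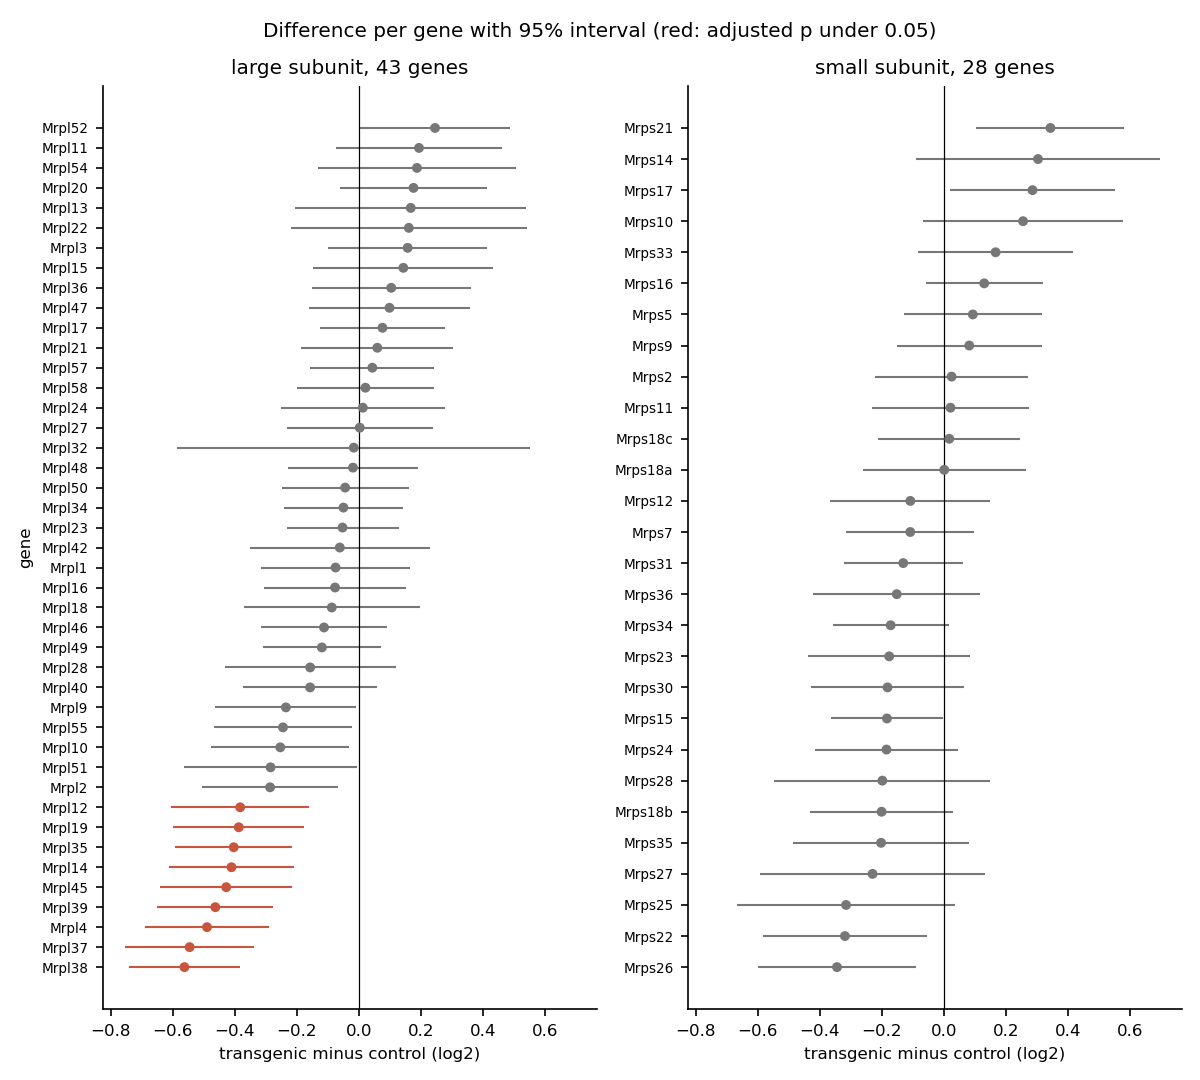
Difference between transgenic and control hearts (log2, horizontal axis) with its 95% interval for each of the 43 large (left) and 28 small subunit genes (right), in order of size. The 9 genes called lower (red) are all in the left panel, and the small subunit genes range from -0.34 to 0.34.

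The middle of the distributions did not show the gap seen in the calls. The median difference was -0.06 over large and -0.12 over small subunit genes, beside -0.03 over all genes tested, while the means were -0.11 and -0.05, in the opposite order. The order of the medians turned with array weights (-0.13 and -0.11) and without control 3 (-0.15 and -0.11). Of the large subunit genes 27 had negative and 16 positive values, and of the small subunit genes 16 and 12, beside 56.7% negative and 43.3% positive among all genes. Groups did not overlap for 15 large subunit genes (13 lower, 2 higher) and 8 small subunit genes (5 lower, 3 higher), beside 16.7% lower and 14.2% higher among all genes. At an unadjusted p under 0.05 the large subunit held 14 lower and 1 higher, beside 13.4% and 11.9% of all genes. The interquartile range of the differences was 0.34 in the large subunit, 0.27 in the small subunit and 0.26 over all genes.

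Control 3 stood apart from the other controls over the members. It was the lowest control for 61 of 71 members (85.9%), beside 39.2% of all genes tested. The median gap between the mean of controls 1 and 2 and control 3 was 0.197 over the members and 0.011 over all genes. The mean over the large subunit genes was 8.70, 8.65 and 8.46 in controls 1 to 3 and 8.54, 8.46 and 8.50 in transgenic hearts 1 to 3. The mean over the small subunit genes was 8.06, 8.09 and 7.90 in controls and 7.98, 7.94 and 7.98 in transgenic hearts. Controls 1 and 2 lay above every transgenic mean in both subunits. Control 3 lay below every one in the small subunit and was nearly equal to the lowest, transgenic 2, in the large. Against controls 1 and 2 alone the median member difference was -0.13, and against control 3 alone 0.04. The median gap of control 3 was 0.10 over 33 genes with Nduf symbols and 0.15 over cytosolic ribosomal protein genes, and these gaps were not tested against each other. No label sets control 3 apart, and its part in the results beyond these values was not tested.

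**Figure D3:**
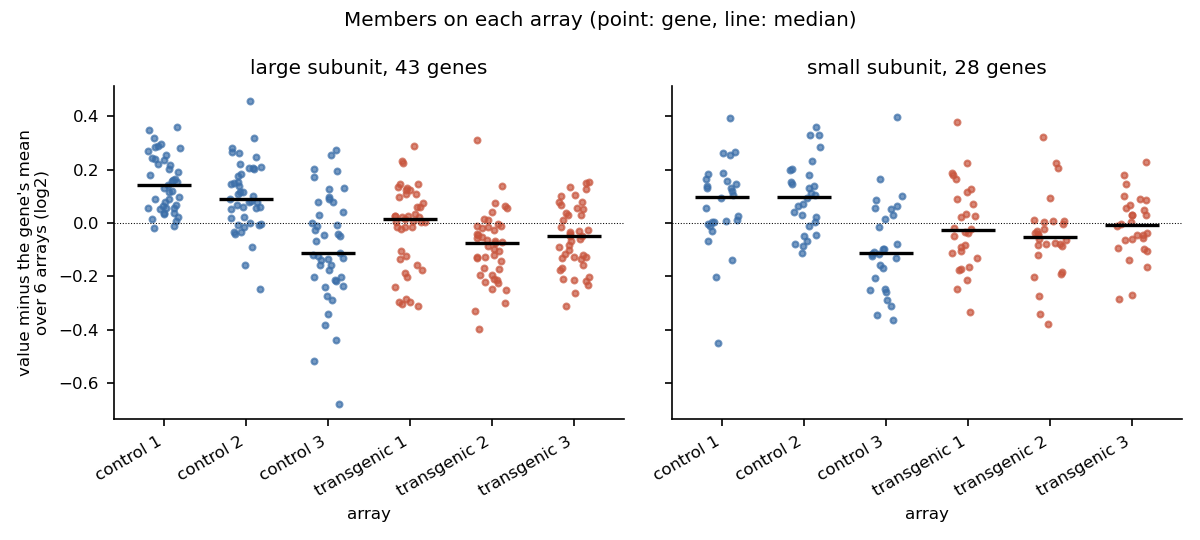
Value of each member minus that gene's mean over the 6 arrays (log2, vertical axis) on each control (blue) and transgenic (red) array, with a line at the median, for 43 large (left) and 28 small subunit genes (right). The median of control 3 is -0.11 in both panels, below all other arrays.

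Mitochondrial ribosomal proteins whose symbols fall outside the rule went both ways. Ptcd3, a pentatricopeptide repeat protein of the small subunit, rose from 9.98, 9.92 and 9.82 in controls to 10.39, 10.42 and 10.63 in transgenic hearts, a difference of 0.57 (SE 0.098, limma adjusted p = 0.007821). All transgenic values lay above all controls, as for 14.2% of all genes tested, but the call was lost when its probes were averaged (limma adjusted p = 0.2183). Dap3, the GTP-binding protein of the small subunit, fell from 8.51, 8.39 and 8.40 to 8.20, 8.02 and 7.91, a difference of -0.39 (SE 0.0997, limma adjusted p = 0.03931). That call was lost without any 1 array other than transgenic 1. Gadd45gip1 of the large subunit had a difference of -0.23 (limma adjusted p = 0.1427).

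Factors that build the mitochondrial ribosome were called lower in 7 of 29 cases and higher in 0, with a median of -0.16. Over all genes tested 5.76% were called lower and 5.35% higher. Noa1 and Mtg2, GTPases of ribosome assembly, fell by 0.46 and 0.41, Rbfa, a small subunit maturation factor, by 0.39, and Tfb1m, which methylates the small ribosomal RNA, by 0.38. Mrm3, which methylates the large ribosomal RNA, fell by 0.37. Spg7 and Afg3l2, the m-AAA protease subunits that mature Mrpl32, fell by 0.34 and 0.29. Adjusted p-values of these 7 genes were 0.02817 to 0.04749 (limma). The count was 6 without control 3 and 0 without any 1 other array. Calls lower over all genes numbered 1279 without control 3 and 602 to 858 without any 1 other array, in place of 1278.

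Of 14 translation factors 2 fell and 0 rose (median -0.14), beside 5.76% called lower and 5.35% called higher among all genes tested. Both calls were kept in all 14 other fits. Tufm, the elongation factor that delivers aminoacyl-tRNA, fell from 10.97, 10.88 and 10.98 in controls to 10.11, 10.21 and 10.21 in transgenic hearts, a difference of -0.77 (SE 0.084, limma adjusted p = 0.001052). Taco1, the translational activator of cytochrome oxidase subunit 1, fell from 8.13, 8.21 and 8.09 to 7.62, 7.62 and 7.60, a difference of -0.53 (SE 0.081, limma adjusted p = 0.004724). The groups did not overlap for either gene, as for 16.7% of all genes in this direction. Both were picked by their calls, so this separation adds no separate support. Among 19 genes for mitochondrial aminoacyl-tRNA synthesis 1 rose and 2 fell (median -0.13). Ears2, the glutamyl-tRNA synthetase, rose from 7.47, 7.57 and 7.45 to 8.26, 8.18 and 8.24, a difference of 0.73 (SE 0.083, limma adjusted p = 0.001255), and was called in all 14 other fits. Gatc, which acts on glutamate-charged tRNA to make glutaminyl-tRNA, fell by 0.38 and Mars2 by 0.31. The Gatc call was lost without any 1 array other than control 3, and the Mars2 call without any 1 array.

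Of 20 genes that copy, transcribe or process mitochondrial nucleic acids 0 passed the limma test (1 higher and 3 lower at an unadjusted p under 0.05), with a median of -0.05. The shares over all genes were 5.35% higher and 5.76% lower in that test, and 11.9% and 13.4% at the unadjusted threshold. Polrmt, the mitochondrial RNA polymerase, had a difference of -0.21 (limma adjusted p = 0.1533) and Tfam, which packages mitochondrial DNA, 0.11 (limma adjusted p = 0.7253). Among 12 regulators of mitochondrial genes Ppargc1b alone was called, higher by 0.41 (limma adjusted p = 0.03931), a call lost without any 1 array other than control 3. Ppargc1a, its relative, had -0.28 (limma adjusted p = 0.1712), Nrf1 0.10 (0.5188), Gabpa 0.22 (0.185), Yy1 -0.05 (0.7455) and Myc 0.19 (0.2927).

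Among 15 other mitochondrial genes 3 fell and 1 rose (median -0.20), with Cs, citrate synthase, lower by 0.96 (difference -0.96, limma adjusted p = 0.0003085). Without any 1 array 2 of the 15 fell and 0 rose, as Immt and Tomm20 lost their calls. The 33 genes with Nduf symbols encode subunits of complex I of the respiratory chain, apart from Ndufa4, of complex IV, and its relative Ndufa4l2. Of these 33 genes 6 fell and 0 rose (median -0.09), and 1 of the 6 was Ndufa4l2 (difference -0.51). Ndufs1 and Ndufa10 had the smallest p-values, with differences of -0.48 each (limma adjusted p = 0.008612 and 0.009267). The Nduf count was 5 without control 3 and 2 or 3 without any 1 other array. Of 67 cytosolic ribosomal protein genes 13 rose and 1 fell (median 0.24). Rps28 had 10.52, 10.57 and 10.19 in controls and 11.27, 11.13 and 11.20 in transgenic hearts, a difference of 0.77 (limma adjusted p = 0.004089). The gene that fell was Rpl3l, the form of striated muscle, by 2.02. The cytosolic count of rises was 6 without control 3, 6 without control 2 and 3 or 4 without any 1 other array, and 4 with arrays centred on their medians. Of all genes 5.76% were called lower and 5.35% higher. Calls higher over all genes numbered 970 without control 3, 946 without control 2 and 569 to 743 without any 1 other array, in place of 1187. With arrays centred on their medians they numbered 894. Calls lower over all genes numbered 1279 without control 3 and 602 to 858 without any 1 other array, in place of 1278. Differences between these lists were not tested.

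**Figure D4:**
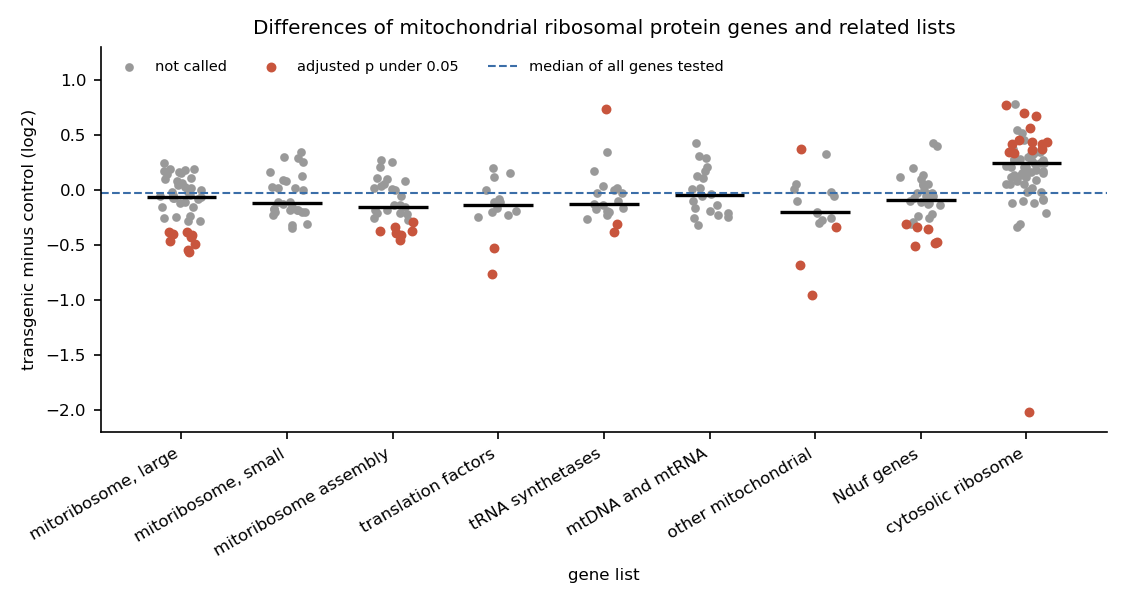
Difference between transgenic and control hearts (log2, vertical axis) of each gene of the large and small mitochondrial ribosomal subunits and of 7 related lists, with called genes in red, a line at each median and a dashed line at the median of all genes tested. The medians run from -0.20 for other mitochondrial genes to 0.24 for the cytosolic ribosome.

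Markers of other heart cell types differed between the same groups. Of 10 endothelial markers 7 fell and 0 rose, with mean log2 values of 9.12 to 9.25 in controls and 8.69 to 8.82 in transgenic hearts. That count was 2 without control 1, transgenic 1 or transgenic 2, 4 without control 2 or transgenic 3, and 6 without control 3. Calls lower over all genes numbered 1279 without control 3 and 602 to 858 without any 1 other array, in place of 1278 (5.76%). Of 10 macrophage markers 7 fell and 0 rose, with means of 7.02 to 7.16 and 6.36 to 6.58. The macrophage count was 5 without control 1 or transgenic 1 and 6 without any 1 other array. Of 5 smooth muscle and pericyte markers 3 fell, with means of 9.05 to 9.10 and 8.66 to 8.88, and 1 of 8 fibroblast markers rose, with means of 9.02 to 9.19 and 9.17 to 9.26. The fibroblast call, that of Postn, was lost without any 1 array, and 1 smooth muscle and pericyte marker was called higher without control 3. Falls among the smooth muscle and pericyte markers numbered 3 without control 2 and 2 without any 1 other array. All 5 proliferation genes rose, with means of 6.72 to 6.82 and 7.45 to 7.60. Without control 1, transgenic 1 or transgenic 3 the number was 4, and without any 1 other array 5. Calls higher over all genes numbered 569 to 970 with 1 array left out, in place of 1187 (5.35%). In whole hearts, fewer cells of a type and less RNA per cell cannot be told apart, and the part of these shifts in the members' differences was not tested.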

How the data were processed

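Total RNA (100 ng) of 6 heart samples was labelled and hybridised to Affymetrix arrays. The deposited table holds log2 expression values, made by the authors with RMA from oligo, as far as the submitters' processing notes name tools. Versions and the build are not given in the sources used. The number of arrays limits the precision. Of 41345 probes, 23521 carried 1 gene symbol in the platform annotation. Per gene the probe with the highest mean over the 6 arrays was used, giving 22180 genes. All 71 members matched the RefSeq table by gene identifier and kept their symbols. 0 pairs of arrays were identical.

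The test, of both sides, was that of limma 3.58.1 (R 4.3.3), by lmFit and eBayes on the groups alone, with Benjamini-Hochberg adjustment over all 22180 genes and a threshold of 0.05. No filter on dim probes was used, and all 71 members remained when the dimmest genes (a share of 0.333) were left out. The steps were tested on simulated data. Members and lists were chosen with earlier results of these data known, so lists are described by counts and medians without a test. Named members were those called, the 6 highest and 6 lowest of each subunit, the Mrps18 paralogs and members with several probes, of which the text gives part. In other lists up to 4 genes by smallest p were named, with some regulators fixed by name. Mrpl2, Mrpl32, Tfb1m, Mrm3, Afg3l2 and Ndufa4l2 fall outside these and were chosen after their values were seen. Alternatives changed the probe rule, normalization, variance model, minimum fold, membership and arrays used, or added the replicate number as a block.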

Additional observations from a re-analysis of the deposited data

How the results depend on the processing

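With every member counted, 9 (12.7%) were called lower and 0 higher, beside 5.76% and 5.35% of all genes. In either direction 12.7% of members and 11.1% of all genes were called. Averaging probes gave 8 lower, testing every probe 9, renewed quantile normalization 12, centred arrays 9, an intensity trend 9, array weights 10 and a minimum fold of 1.1 (limma treat) 4, all 4 of them in the large subunit. Calls lower over the whole table numbered 1278 in the main fit, 1236 with averaged probes and 1283 with every probe. They numbered 1789 after quantile normalization, 1453 with centred arrays, 1589 with the trend, 1677 with array weights and 609 with the minimum fold. Leaving out 1 array at a time gave 4 to 10 lower, all in the large subunit, and 0 to 2 higher, all in the small subunit. The same fits called 602 to 1279 of all genes lower and 569 to 970 higher. Of the small subunit, 1 gene was called higher with the dimmest genes left out, 1 with an intensity trend and 1 (Ptcd3) when subunits with other symbols were added, which also brought 1 lower (Dap3), and 2 were called lower after renewed quantile normalization, which shifts the median of all genes to -0.06. The median of the large minus that of the small subunit was 0.059, -0.024 with array weights and -0.042 to 0.071 when 1 array was left out, and the cause was not tested. The correlation of deviations between same-numbered control and transgenic arrays was 0.016, -0.13 and 0.014. No array correlated best with the array of its own number. All correlations between a control and a transgenic array ran from -0.13 to 0.11. Deviations from the mean of so few arrays depend on each other, so values this weak cannot decide whether the numbers pair the samples. With the replicate block 7 members were called lower and 0 higher, beside 999 and 997 of all genes.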

Other observations

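Of the 71 members 9 had a second probe. For Mrps17, Mrps16, Mrps18b and Mrps18c the probes pointed the same way, with 0.29 and 0.25, 0.13 and 0.28, -0.20 and -0.16, and 0.02 and 0.05. Their dimmer probes, given second, had mean values of 4.56, 5.87, 8.01 and 5.44 in the same order. The median over all probes of an array was 5.45 to 5.54. For Mrpl10 the brighter probe had -0.25 and the dimmer 0.02, for Mrpl47 they had 0.10 and -0.15, and for Mrps5 0.09 and -0.16. Mrpl36 had 0.10 and 0.0098. In the fit of every probe the only call among these 18 probes was that of the brighter Mrpl12 probe (limma adjusted p = 0.04198).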
